A study of Equus caballus with 18 samples.

Results

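RNA-Seq counts of 4 girdle and neck muscles were compared with those of 6 intrinsic forelimb muscles, 10 of the 18 skeletal muscles sampled from 1 male Jeju horse. The girdle and neck muscles tie the forelimb to the trunk, neck or hyoid bone and were the rhomboideus, omohyoideus, trapezius and pectoralis. The intrinsic forelimb muscles lie within the limb and were the long head of the triceps brachii, biceps brachii, infraspinatus, supraspinatus, extensor digitorum communis and extensor carpi radialis. The other muscles were 7 of the hindlimb and the longissimus of the trunk. All muscles were chosen by anatomical label, and no measured value was used to place a muscle in a group. The muscle given as pectoralis carries the label Pectoralis major.

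Each muscle gave 1 library, so the muscles of a group served as its replicates. The spread within a group is therefore the spread between different muscles of 1 animal, and the p-values say nothing about other horses. The labels name no treatment, and all groups share the same animal. The libraries held between 31395013 counts in the omohyoideus and 50508515 counts in the pectoralis, and the forelimb libraries lay within this range, from 33537488 to 39725356. The most abundant identifier took 24.1% to 37.1% of the counts of a girdle or neck library and 25.3% to 33.9% of those of a forelimb library.

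Skeletal muscles differ in their mix of slow and fast fibres, which use different myosins, troponins and calcium pumps, and postural muscles tend to hold more slow fibres than muscles that move a limb quickly. Muscles also have different developmental origins. Limb muscles come from cells that migrate out of the somites into the limb bud, and patterning genes of the HOX and TBX families mark the position of a limb along the body, some of them in the hindlimb only. The trapezius shares part of its developmental programme with the muscles of the head and neck. The count table lists genes by Ensembl identifier, with no symbols beside them, so the genes of these families could not be looked up. For the same reason the labelled muscles were not checked against defining markers, and the share of fat, tendon or nerve in each sample was not measured. In bulk tissue, fewer cells of a type and less RNA per cell cannot be told apart.

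The girdle and neck muscles were first compared with the intrinsic forelimb muscles over all identifiers. No identifier passed the test, as 0 of 13015 tested (0%) had an adjusted p below 0.05 with an absolute log2 fold change (log2FC) above 0.58 in edgeR's quasi-likelihood test with Benjamini-Hochberg adjustment. The lowest adjusted p in edgeR was 0.375. At an unadjusted p below 0.05 there were 979 identifiers, of which 427 were higher and 552 were lower in the girdle and neck muscles. DESeq2's Wald test with the same thresholds called 41 identifiers, 26 higher and 15 lower. Of these 41, 38 were among the identifiers tested in edgeR, and 25 of those 38 had levels that did not overlap between the groups. Among all 13015 tested, 107 (0.822%) lay apart above and 119 (0.914%) below. The 38 were chosen by a test on the same values, so their lack of overlap is no separate support. The count of calls thus differed between the tools as run. DESeq2 gave an unadjusted p for 21847 identifiers, and its default settings can leave some of them without an adjusted p. It also used its own scaling, so more than the test changed. In edgeR, DESeq2 size factors alone and no filter on low counts alone each gave 0 calls.

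Over all identifiers tested, the median absolute log2FC was 0.18, and the median standard error of this difference was 0.22. From the lowest to the highest 5 percent point, log2FC ran from -0.56 to 0.50, and its median was -0.05. A difference of over 2-fold was fitted for 128 identifiers that were higher in the girdle and neck muscles and for 109 that were lower. Over 4-fold, the numbers were 15 and 11. These counts take no account of the error of each value.

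The levels of the 4 girdle and neck muscles lay above those of all 6 forelimb muscles for 107 identifiers (0.822% of those tested) and below all of them for 119 (0.914%). The median log2FC was 0.48 among the 107 and -0.49 among the 119, and the largest absolute values were 1.52 and 1.88. Of the 979 identifiers with an unadjusted p below 0.05, 785 had levels that overlapped between the groups.

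**Figure D1:**
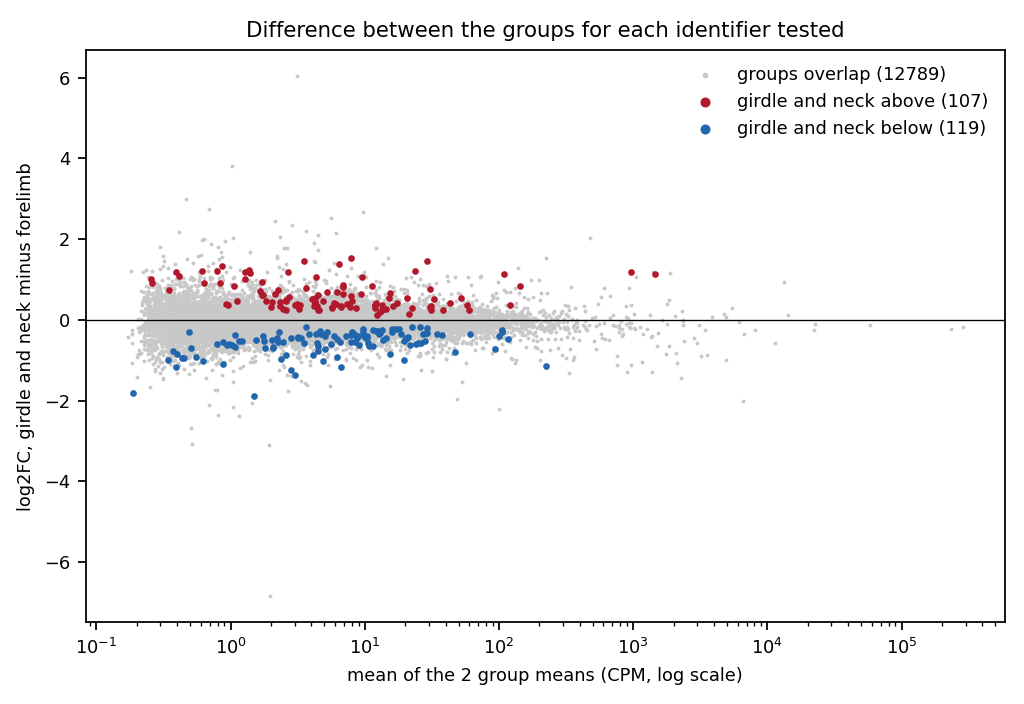
Log2FC of girdle and neck minus intrinsic forelimb muscles (vertical axis) against mean level in CPM, the read counts scaled to library size (horizontal axis, log scale) for the 13015 identifiers tested, 1 point each. The 107 identifiers with girdle and neck levels above all forelimb levels are red, the 119 below are blue and the rest are grey, and most points lie close to 0 at every level.

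The 2 identifiers of smallest p in each direction among those without overlap are given with their levels in every muscle, in CPM after TMM scaling of the 10 libraries. None of these 4 passed the test in edgeR. ENSECAG00000015471 was at 8.21 CPM in the rhomboideus, 9.26 in the omohyoideus, 10.6 in the trapezius and 7.52 in the pectoralis. Its forelimb levels were 5.83 in the triceps brachii, 5.75 in the biceps brachii, 4.99 in the infraspinatus, 4.48 in the supraspinatus, 3.89 in the extensor digitorum communis and 4.36 in the extensor carpi radialis. The trapezius was highest and the digital extensor lowest, and the pectoralis came nearest to the forelimb muscles. The means were 8.89 ± 1.34 CPM (SD, n = 4) and 4.88 ± 0.787 CPM (SD, n = 6), with a log2FC of 0.86 ± 0.16 (SE) and an adjusted p of 0.447 in edgeR. DESeq2 gave an adjusted p of 0.00318.

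ENSECAG00000010109 had its highest level in the omohyoideus, at 8.65 CPM, followed by the trapezius at 5.26, the rhomboideus at 3.79 and the pectoralis at 2.92. The forelimb levels were 2.48 in the biceps brachii, 2.30 in the extensor carpi radialis, 1.95 in the supraspinatus, 1.63 in the infraspinatus, 1.54 in the extensor digitorum communis and 1.45 in the triceps brachii. The girdle and neck muscles were more spread than the forelimb muscles, and the gap between the pectoralis and the biceps brachii was narrow. The means were 5.16 ± 2.52 CPM (SD, n = 4) and 1.89 ± 0.424 CPM (SD, n = 6), and the log2FC was 1.44 ± 0.28 (SE). The adjusted p was 0.447 by edgeR and 0.00873 by DESeq2.

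ENSECAG00000002236 had the lowest p of all identifiers and was lower in the girdle and neck muscles. It was at 0.322 CPM in the rhomboideus, 0.521 in the trapezius, 0.605 in the omohyoideus and 1.07 in the pectoralis. In the forelimb it was at 1.85 in the triceps brachii, 2.02 in the extensor digitorum communis, 2.27 in the biceps brachii, 2.62 in the infraspinatus, 2.62 in the extensor carpi radialis and 2.71 in the supraspinatus. The pectoralis again lay closest to the forelimb. The means were 0.631 ± 0.318 CPM (SD, n = 4) and 2.35 ± 0.358 CPM (SD, n = 6), with a log2FC of -1.88 ± 0.29 (SE) and an adjusted p of 0.375 in edgeR. Without the pectoralis the log2FC was -2.27 and the adjusted p in edgeR was 0.0171, which passed the test. Leaving out any other single muscle gave no pass in edgeR, with adjusted p from 0.145 to 0.832. DESeq2 gave 4.15e-06 with all 10 muscles.

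ENSECAG00000012249 was also lower in the girdle and neck muscles, at 2.08 CPM in the trapezius, 2.93 in the rhomboideus, 3.61 in the pectoralis and 4.33 in the omohyoideus. The forelimb levels were 5.11 in the biceps brachii, 5.61 in the triceps brachii, 6.29 in the infraspinatus, 6.51 in the supraspinatus, 7.92 in the extensor carpi radialis and 8.23 in the extensor digitorum communis. Both distal extensors were the highest of the 10 muscles, and the omohyoideus came closest to the forelimb. The log2FC was -1.03 ± 0.22 (SE). By edgeR the adjusted p was 0.447, and by DESeq2 it was 0.0212. The 4 identifiers were named for their small p, so their agreement in passing with DESeq2 is no independent support.

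**Figure D2:**
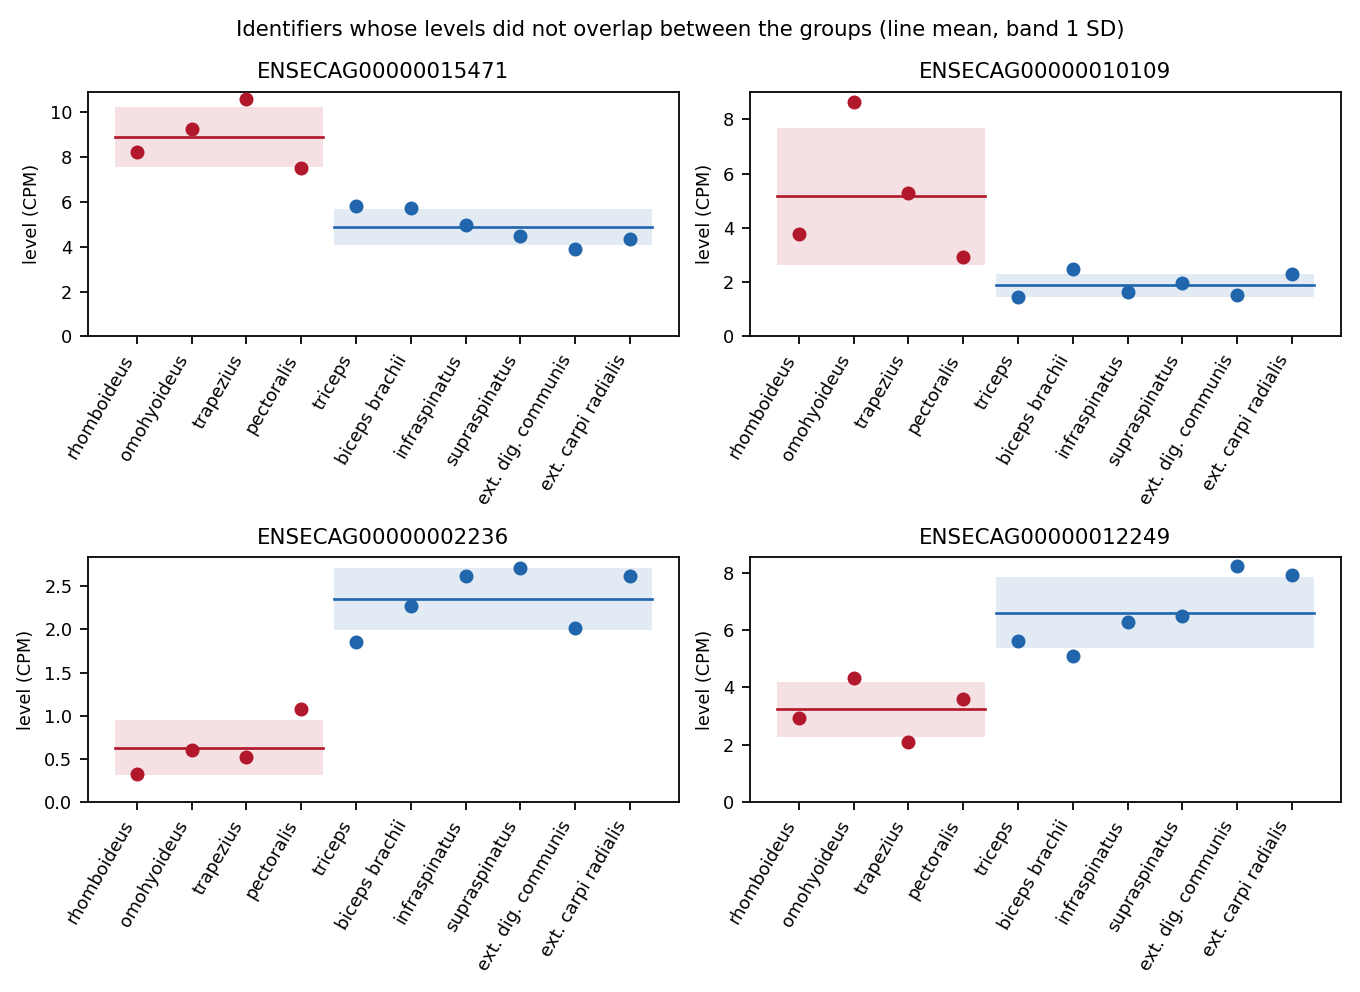
Level in CPM (vertical axis, from 0) of 4 identifiers in each of the 10 muscles (horizontal axis), with girdle and neck muscles in red and intrinsic forelimb muscles in blue. Lines are group means and bands 1 SD, and the groups do not overlap, with the pectoralis or omohyoideus nearest to the forelimb muscles.

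The hindlimb gave a second set of limb muscles for these 4 identifiers, on the CPM scale of the fit of all 18 muscles. ENSECAG00000015471 had a hindlimb mean of 5.37 CPM, with muscles from 3.06 to 8.25, beside 8.94 in the girdle and neck and 4.91 in the intrinsic forelimb. ENSECAG00000010109 had a hindlimb mean of 2.79 CPM, from 1.48 to 4.42, beside 5.18 and 1.90. ENSECAG00000012249 had a hindlimb mean of 6.42 CPM, from 3.83 to 9.43, beside 3.25 and 6.65. For these 3 identifiers the hindlimb mean lay nearer to the forelimb mean than to that of the girdle and neck. ENSECAG00000002236 had a hindlimb mean of 1.10 CPM, from 0.479 to 2.32, which lay nearer to the mean of 0.634 in the girdle and neck than to that of 2.36 in the forelimb. None of the 4 passed the test in edgeR against the hindlimb from either side, where adjusted p ran from 0.168 to 0.421 for the girdle and neck and from 0.194 to 0.941 for the forelimb.

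The largest fitted increase in the girdle and neck muscles came from 3 of the 4 muscles. ENSECAG00000014103 was at 15.0 CPM in the omohyoideus, 6.85 in the trapezius and 3.08 in the rhomboideus on the scale of all 18 muscles, while the pectoralis had 0 counts. In the forelimb it was at 0.359 CPM in the biceps brachii, 0.0622 in the triceps brachii, 0.0506 in the extensor digitorum communis, 0.0311 in the infraspinatus and 0.0265 in the supraspinatus, with 0 counts in the extensor carpi radialis. Thus 3 girdle and neck muscles stood above all forelimb muscles and the pectoralis lay at the low end of the forelimb range. In the comparison of 10 muscles its log2FC was 6.04 ± 1.14 (SE), which did not pass (edgeR, adjusted p = 0.447), and without the pectoralis the log2FC was 6.45 and the adjusted p 0.0156. Without the omohyoideus the log2FC was 5.13 (adjusted p = 0.664), and without the trapezius it was 5.99 (adjusted p = 0.832). DESeq2 gave an adjusted p of 0.029 with all 10 muscles. It passed the filter on low counts through the 3 muscles where it was high together with the biceps brachii. Without the biceps brachii it was left out of the fit. These p-values thus add little support to the levels themselves. The identifier was named in the comparison with the hindlimb, after its values were seen.

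The girdle and neck muscles were then compared with the 7 hindlimb muscles, using the same libraries again. In edgeR, 5 of 13531 identifiers passed (0.037%), 3 higher and 2 lower in the girdle and neck, and 1710 had an unadjusted p below 0.05. All 5 were also called by DESeq2, which called 101. ENSECAG00000014103 was 1 of the 3 that rose, with a log2FC of 6.51 ± 1.05 (SE) and an adjusted p of 0.0246 in edgeR. Here too it passed the filter on low counts mainly through the muscles where it was high, so this p-value adds little support. Its hindlimb levels ran from 0 to 0.372 CPM, with a median of 0.0183, so that the pectoralis fell within the hindlimb range as well. The call was lost without the omohyoideus, at a log2FC of 5.62 (adjusted p = 0.0905), and without the trapezius, at a log2FC of 6.46 (adjusted p = 0.0948).

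ENSECAG00000004259 rose by a smaller amount but in all 4 muscles. Its levels were 3.68 CPM in the rhomboideus, 3.65 in the trapezius, 2.15 in the omohyoideus and 2.14 in the pectoralis, against 0.701 to 1.64 with a median of 1.01 in the hindlimb. No hindlimb muscle reached the girdle and neck range. The log2FC was 1.36 ± 0.22 (SE), with an adjusted p of 0.0246 in edgeR. The intrinsic forelimb muscles, from 1.96 to 2.95 CPM, lay above the hindlimb too, with a log2FC of 1.14 ± 0.20 (SE) and an adjusted p of 0.0792 in edgeR. That difference passed in DESeq2 (adjusted p = 0.000843) and in edgeR without the extensor carpi radialis (adjusted p = 0.036). It did not pass in edgeR without any other single forelimb muscle, where adjusted p ran from 0.132 to 0.225. The difference between girdle and forelimb was 0.23 ± 0.21 (SE, adjusted p = 0.837 in edgeR) in the fit of 10 muscles. The call of the girdle and neck against the hindlimb was lost without the rhomboideus (log2FC 1.23, adjusted p = 0.259), without the trapezius (log2FC 1.24, adjusted p = 0.206) and where only identifiers with 10 or more counts in each library were tested (log2FC 1.40, adjusted p = 0.0606).

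The third identifier that rose is given by its values alone, as identifiers are printed for 2 in each direction. It was at 1.30 CPM in the rhomboideus, 0.608 in the trapezius, 0.516 in the omohyoideus and 0.276 in the pectoralis, against 0.0625 to 0.186 in the hindlimb, with a log2FC of 2.58 ± 0.43 (SE) and an adjusted p of 0.0262 in edgeR. The forelimb levels ran from 0.0506 to 0.265 CPM, so that all 4 girdle and neck muscles lay above all 6 forelimb muscles on the scale of 18 muscles, the pectoralis by a narrow margin. Its counts ran from 2 to 48 in the 18 libraries, and the filter on low counts left it out of the edgeR fit of 10 muscles. In the fit of 18 muscles it passed that filter mainly through girdle and neck libraries, where it was high. Its p-value against the hindlimb thus adds little support to the levels themselves. In the fit of 18 muscles the difference between girdle and neck and forelimb had a log2FC of 2.14 ± 0.44 (SE) with an adjusted p of 0.535, while DESeq2 on the 10 muscles called it, at a log2FC of 2.18 and an adjusted p of 0.0348. The call against the hindlimb was lost in edgeR without the rhomboideus (log2FC 2.06, adjusted p = 0.288), without the trapezius (log2FC 2.63, adjusted p = 0.109) and without the omohyoideus (log2FC 2.72, adjusted p = 0.0531).

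Both identifiers that fell were absent from the counts of all 10 muscles of the girdle, neck and forelimb. ENSECAG00000024900 had 0 counts in each of the 4 girdle and neck and the 6 forelimb libraries, and 37 to 58 counts in each of the 7 hindlimb libraries, which was 0.984 to 1.54 CPM with a median of 1.22. Taking 3 counts over a group as the limit that a count of 0 allows, it was at least 66.0-fold lower in the girdle and neck and at least 87.7-fold lower in the intrinsic forelimb than in the hindlimb. The adjusted p in edgeR was 0.000144 for the girdle and neck and 2.80e-05 for the forelimb. This identifier passed the filter on low counts only through the hindlimb libraries. These p-values thus add no support to the counts themselves. The longissimus had 1 count.

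ENSECAG00000024985 likewise had 0 counts in all 10 libraries and 33 to 96 counts in each hindlimb library, which was 0.878 to 2.62 CPM with a median of 1.38. It was at least 86.5-fold lower in the girdle and neck and at least 115-fold lower in the forelimb, with adjusted p of 0.000585 and 0.000115 in edgeR. This identifier too passed the filter only through the hindlimb libraries, so its p-values add no support to the counts. Here the longissimus, with 60 counts and 1.60 CPM, stood within the hindlimb range. The limits cover counting error only, as PCR copies of a molecule are counted as separate reads.

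**Figure D3:**
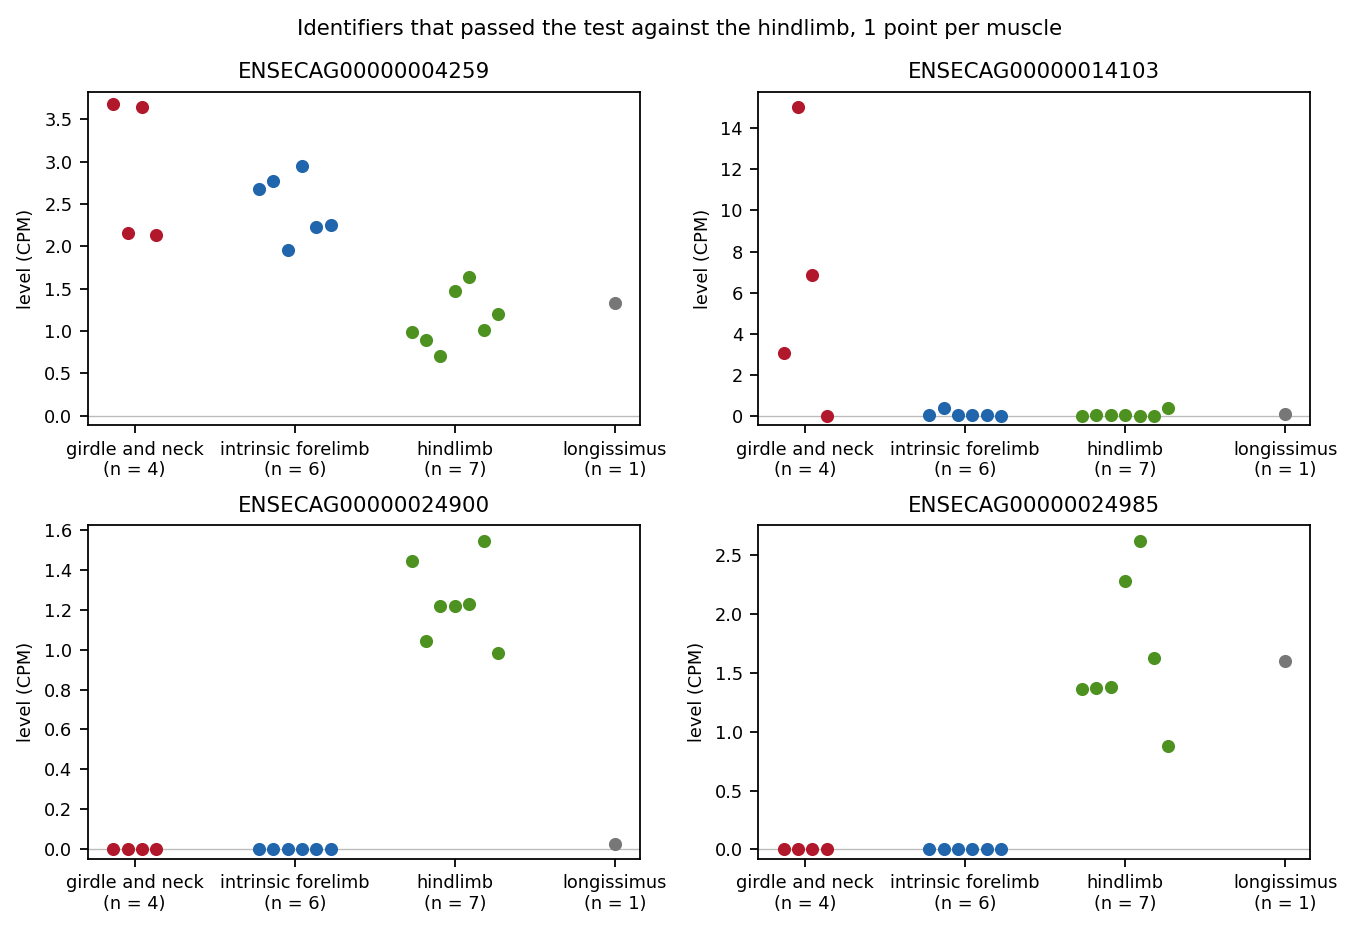
Level in CPM (vertical axis) of 4 identifiers that passed the test against the hindlimb, 1 point per muscle, with the groups along the horizontal axis. ENSECAG00000024900 and ENSECAG00000024985 are at 0 in all 10 girdle, neck and forelimb muscles, and the point at 0 for ENSECAG00000014103 in the girdle and neck is the pectoralis.

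These were the 2 identifiers that passed in the comparison of the intrinsic forelimb with the hindlimb, where 2 of 13531 were called in edgeR (0.0148%), 0 higher and 2 lower, and 1723 had an unadjusted p below 0.05. DESeq2 called 110, among them ENSECAG00000024985, while it gave no adjusted p for ENSECAG00000024900. The number of calls rested on 1 library, as 200 identifiers were called in edgeR without the extensor carpi radialis, 103 higher and 97 lower. The count against the girdle and neck also moved with single muscles, to 18 without the pectoralis, 3 without the rhomboideus, 3 without the omohyoideus and 2 without the trapezius. An all-or-none pattern was rare: of the 25239 identifiers in the table used here, 2 had at least 10 counts in every hindlimb library and at most 3 in every girdle, neck and forelimb library. No identifier had this pattern between the girdle and neck and the forelimb, in either direction.

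The distances between muscles showed how much each group varied. Over the log2 CPM of the 13015 identifiers, the closest pair was the rhomboideus and trapezius, at a Euclidean distance of 42.1. The next closest were the triceps brachii and supraspinatus at 60.2, the triceps brachii and infraspinatus at 62.0, and the omohyoideus and pectoralis at 62.9. The farthest pair was the rhomboideus and extensor carpi radialis, at 96.7. The 6 pairs within the girdle and neck had a median of 69.9, the 15 pairs within the forelimb 85.5, and the 24 pairs between the groups 76.2.

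Pairs of forelimb muscles were thus at a larger median distance than pairs from different groups. This order rested on the extensor digitorum communis and extensor carpi radialis. Among the pairs without these distal extensors, the forelimb median was the lower of the 2, but only by a small margin. Each of the 6 forelimb muscles was on average nearer to the girdle and neck muscles than to the other forelimb muscles, for example 77.0 against 85.4 for the biceps brachii and 70.6 against 74.8 for the supraspinatus. The differences were small for the triceps brachii, at 72.4 against 72.9. These averages include the distances to both distal extensors. With the distal extensors set aside, the triceps brachii, infraspinatus and supraspinatus were on average nearer to their own group. The biceps brachii was still nearer to the girdle and neck. All 4 girdle and neck muscles were nearer to their own group, from 60.6 against 74.3 for the trapezius to 68.7 against 74.2 for the pectoralis. Distances share muscles and are given with no test.

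**Figure D4:**
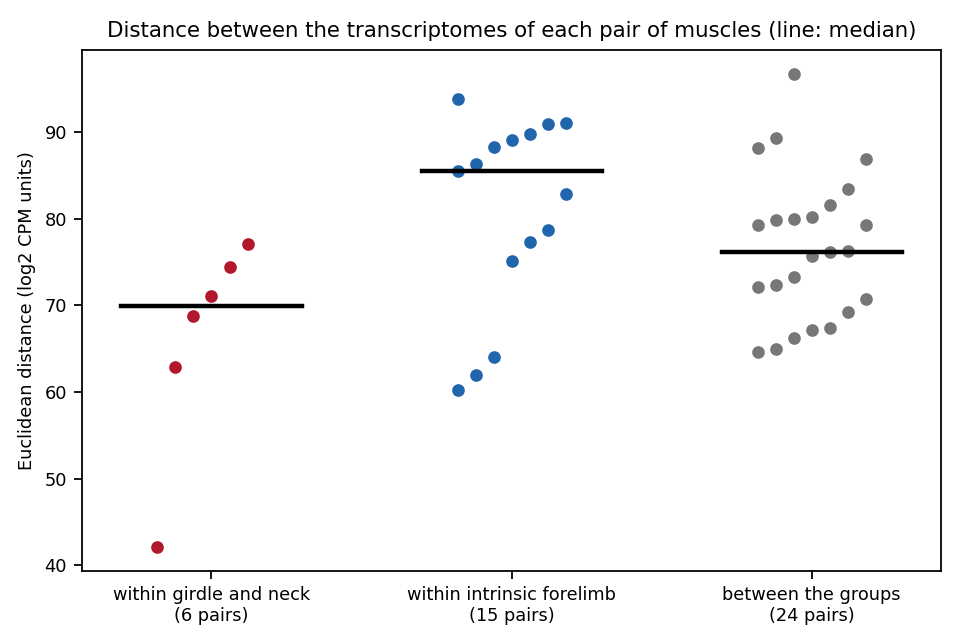
Euclidean distance in log2 CPM units (vertical axis, not starting at 0) between the 2 muscles of each pair, by kind of pair, where horizontal spread within a kind has no meaning. Black lines are the medians, 69.9 within the girdle and neck, 85.5 within the forelimb and 76.2 between the groups.

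The nearest muscle was of the same group for 7 of the 10 muscles. The exceptions were the biceps brachii, nearest to the omohyoideus at 72.3, the extensor digitorum communis, nearest to the trapezius at 76.1, and the extensor carpi radialis, nearest to the pectoralis at 73.2. The distal extensors, which act on the digits and carpus, were 91.1 from each other, among the most distant pairs. They also held the extreme level of more identifiers than any other of the 10 muscles. The extensor carpi radialis was highest for 15.5% and lowest for 16.2% of identifiers, and the extensor digitorum communis for 15.5% and 16.5%. The trapezius was highest for 4.98% and lowest for 6.55%.

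Principal components placed the muscles of both groups among each other. The first component held 22.6% of the variance and ran from the extensor carpi radialis at -48.6 to the rhomboideus at 33.3, with the trapezius at 24.1, the infraspinatus at 23.1 and the supraspinatus at 19.9. The omohyoideus, at -26.7, and the pectoralis, at -16.1, lay on the other side. The second component held 20.8% and ran from the infraspinatus at -29.8 to the extensor digitorum communis at 36.7, with the biceps brachii at 27.7 and the omohyoideus at 23.5. Neither component separated the girdle and neck from the forelimb, and each split the 4 girdle and neck muscles.

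**Figure D5:**
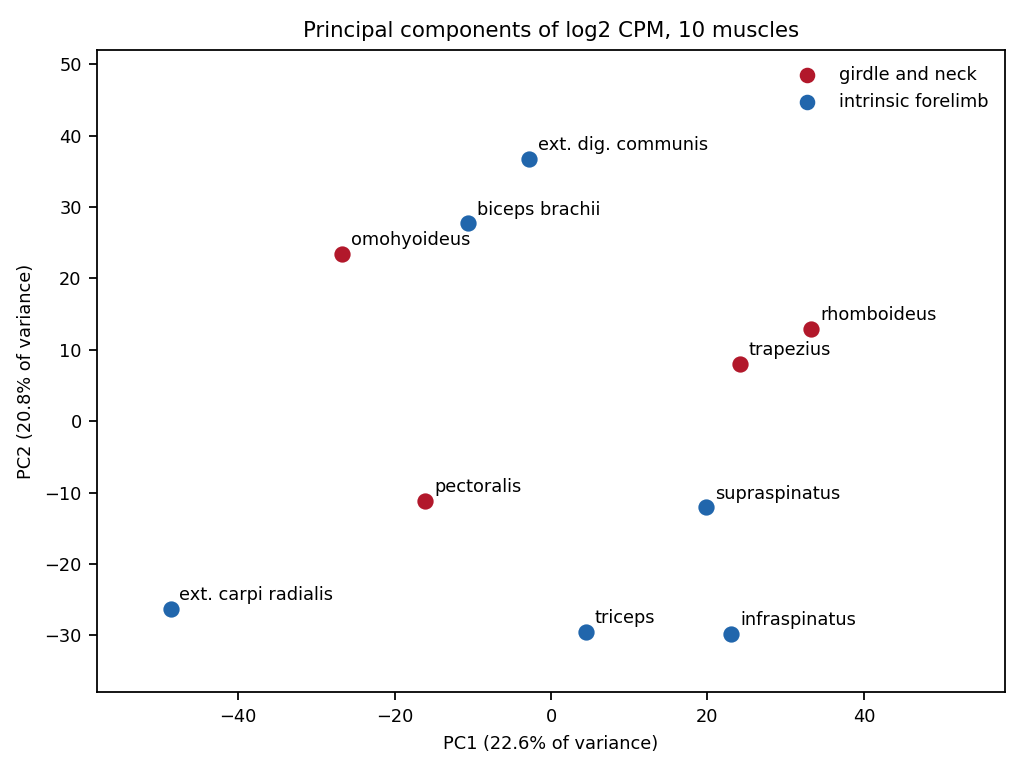
First 2 principal components of log2 CPM for the 10 muscles, with girdle and neck muscles in red and intrinsic forelimb muscles in blue, and the percent of variance on each axis. The rhomboideus and trapezius lie together at the right, the omohyoideus and pectoralis at the left, and the colours are mixed.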

How the data were processed

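Total RNA depleted of ribosomal RNA was sequenced with paired reads, 1 library for each of 18 muscles of 1 horse. Per the study's methods, the authors trimmed the reads, aligned them to the EquCab2 genome with STAR (2.5.2b, as also given in the submitters' processing notes) and deposited raw counts per Ensembl gene identifier, with no replicates pooled. How strand was handled is not given in the sources used here, so overlapping and antisense genes cannot be told apart. The table used here holds 25239 identifiers and no symbols. That is fewer genes than the study's methods state were counted, so totals over identifiers hold for this table only. The reference table used here is of another assembly and links no Ensembl identifier, so genes are given by identifier. The gene lists, cell type markers and named muscle genes that had been planned could not be looked up and are not reported here, and no sequence is shown.

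Groups were taken from the muscle labels. Counts were filtered with filterByExpr, scaled by TMM and tested in edgeR 4.0.16 (quasi-likelihood, R 4.3.3) on the 10 muscles compared, with Benjamini-Hochberg adjustment over all identifiers tested. An identifier was called where its log2FC exceeded 0.58 in size and its adjusted p was under 0.05. Comparisons with the hindlimb came from 1 fit of 18 muscles in 4 groups, with the filter taken on the 3 groups of several muscles, and they share libraries with each other and with the first comparison. The lone trunk library adds nothing to the estimated spread. Standard errors were derived from the F statistics. Log2 CPM for distances used a prior count of 2. DESeq2 1.42.0, other scalings and filters, and leaving out muscles were the alternatives, and the code was tested on simulated data. Figures were drawn with matplotlib 3.10.9.

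Named identifiers of the first comparison were the 2 of smallest p per direction that did not overlap and reached 10 counts in each muscle of the group with the higher level. Against the hindlimb, the 2 identifiers of smallest p in each direction among those called were given, a choice made after the values were seen. The muscles, lists and tests were chosen with earlier results of these data known.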

Additional observations from a re-analysis of the deposited data

Results flagged for a closer look

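In the hindlimb, ENSECAG00000014103 stood apart in the extensor digitorum lateralis, with a log2 CPM of -1.24 (0.372 CPM) against a next highest muscle at -3.34. Its gap to that muscle was 0.695 of the whole range of the group, above the critical value of Dixon's test for 7 samples. Of 19 sets of levels tested in this way on the log2 scale, 1 passed, and chance gives about 1 in 20. The pectoralis, at 0 counts for this identifier, did not pass within the 4 girdle and neck muscles. ENSECAG00000024985 had 60 counts (1.60 CPM) in the longissimus, which entered no comparison, while all 10 girdle, neck and forelimb libraries were at 0.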

How the results depend on the processing

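The count of identifiers called between the girdle and neck and the forelimb was 0 in edgeR with DESeq2 size factors, library size only and the robust fit. It was also 0 with no filter on low counts, a minimum of 10 counts in each library, and all 18 muscles in 1 fit. It was 0 as well without the rhomboideus and trapezius together. It was 41 in DESeq2 and 1 without both distal extensors, and leaving out 1 muscle gave 0 to 2. The 2 came without the pectoralis and 1 without the extensor carpi radialis. Scaling by library size moved the median log2FC of all identifiers from -0.05 to 0.13. Against the hindlimb, the girdle and neck had 0 calls with at least 10 counts in every library, and 101 in DESeq2, and leaving out 1 muscle gave 2 to 18, with 3 each without the rhomboideus and without the omohyoideus, 2 without the trapezius and 18 without the pectoralis. For the forelimb the numbers were 0, 110 and 2 to 200. The filter of 10 counts could not keep the 2 identifiers called for the forelimb, as they had 0 counts in its libraries. For the girdle and neck, that filter removed 4 of the 5 identifiers called, and the fifth was tested in edgeR and did not pass (adjusted p = 0.0606). Why the counts moved otherwise was not tested. The 4 named identifiers of the first comparison kept their sign in each of the 19 alternative fits. The nearest muscle was of the same group for 6 of 10 muscles over the 1000 most variable genes, where the pectoralis and supraspinatus were nearest to each other and the extensor carpi radialis was nearest to the triceps brachii of its own group. The alternative with a fibre type covariate and those for gene lists were not run, as they need gene names. No paired analysis was possible because each muscle is 1 library and the labels give no shared replicate numbers. With 1 horse, a difference between muscles cannot be told apart from a difference between these single samples.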
